A study of Brassica oleracea with 4 samples.

Results

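Plant defensins of the PDF1 family were examined in broccoli (Brassica oleracea) microgreens, in the hypocotyl, the stem below the cotyledons. The genes are Bo6g086120, annotated as plant defensin 1.3, Bo6g086130, annotated as plant defensin 1.2C, and Bo2g086460, annotated as PDF1.1. They were chosen by identifier and are 3 of the 135 genes in the deposited table. No other gene of that table carries a defensin annotation. Transcripts were measured by RNA sequencing at an age of 10 days. Seedlings had received a daily spray of 10 mmol/L calcium chloride or of water alone, with 2 libraries per spray and 4 in all. All trays were kept at 25 °C on hydroponic pads, in darkness for the first 4 days and afterwards under 12 h of light per day at 42 µmol per second and square metre. The sources used here give neither the cultivar nor whether the libraries of a spray came from separate trays.

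Defensins are small secreted peptides whose fold is held together by disulfide bridges, and many of them stop the growth of fungi. In Arabidopsis, transcripts of the PDF1.2 genes are widely used as a marker of joint jasmonate and ethylene signalling, and salicylic acid can counteract that response. PDF1.1 peptide is known there from seeds, and PDF1 peptides of Arabidopsis halleri, a related species, have been tied to zinc tolerance. The PDF1 genes of Arabidopsis encode closely similar peptides, and the transcripts are short.

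Each gene had 1 RPKM value per spray, a read count scaled to gene length and to the total of mapped reads, so levels may be set side by side between genes. No value of a single library was among the data. Differences between sprays, and differences between the copies, therefore carry no replicate error and were not tested here. The depth of the libraries is unknown, and no counting interval can be given. The table holds only genes that differed at least 2-fold between the sprays, with adjusted p-values up to 0.0423 in the authors' deposited table. A ratio of 2-fold or more in the defensins is thus a condition of being listed, and PDF1 copies outside the table were not analysed here. Whether reads were shared between similar copies was not tested, so the single values are uncertain to that extent. In a whole organ, more cells with a transcript and more transcript per cell cannot be told apart.

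All 3 PDF1 genes were higher with calcium, as were 71 of the 135 genes, or 52.6% of the table. Summed over the genes, PDF1 transcripts were at 340.9 RPKM with calcium and 84.9 RPKM with water, a 4.01-fold difference. The plant defensin 1.3 gene had the largest ratio, and it made up 38.1% of the sum of the 3 genes with calcium against 17.8% with water. In the same samples, 12 of 12 photosynthesis genes listed by annotation words for cotyledon and leaf were lower with calcium. So were 64 of the 135 genes, or 47.4% of the table.

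The plant defensin 1.3 gene (Bo6g086120), which matches Arabidopsis AT2G26010, was at 129.9 RPKM with calcium and 15.1 RPKM with water. It was the least abundant of the copies with water and the second most abundant with calcium. The ratio was 8.58-fold, a log2 ratio of 3.10, and the adjusted p in the authors' deposited table is listed as 0, as for 41 genes in all. Only 8 genes of the table had a larger ratio. With water, 12.6% of the genes in the table were below this gene in RPKM, and with calcium 68.1% were.

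The plant defensin 1.2C gene (Bo6g086130), which matches Arabidopsis AT5G44430, was at 152.5 RPKM with calcium and 47.7 RPKM with water. Its Arabidopsis counterpart belongs to the PDF1.2 genes that serve as the jasmonate and ethylene marker. It was the most abundant copy under both sprays. The ratio was 3.20-fold, a log2 ratio of 1.68, and the adjusted p in the authors' deposited table was 2.90e-11. It stood at place 32 in the order of the ratio. The median ratio of the 71 higher genes was 2.98-fold, so this gene was close to the middle of them.

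The PDF1.1 gene (Bo2g086460), which matches Arabidopsis AT1G75830, was at 58.5 RPKM with calcium and 22.1 RPKM with water. It was the least abundant copy with calcium and stood above the plant defensin 1.3 gene with water. The ratio was 2.65-fold, a log2 ratio of 1.41, and the adjusted p in the authors' deposited table was 0.00760. This was the smallest ratio and the highest adjusted p of the family. It held place 47 in the order of the ratio. When the log2(RPKM + 1) values of the table were quantile normalized, the order of the lower 2 ratios turned round, with 2.87-fold for PDF1.1 and 2.68-fold for plant defensin 1.2C.

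**Figure D1:**
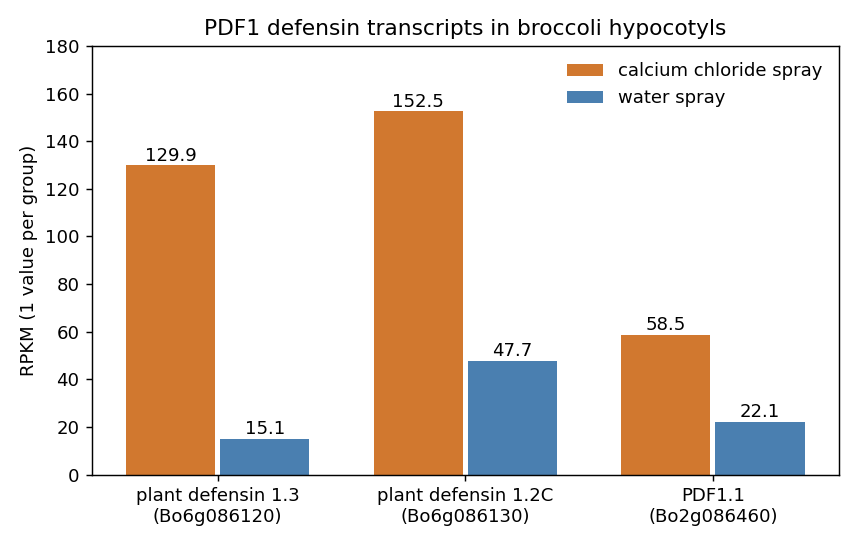
RPKM of each PDF1 gene (vertical axis) with calcium chloride spray (left bar of each pair) and with water spray (right bar), 1 value per group and no error. The plant defensin 1.3 gene is the lowest bar with water, at 15.1 RPKM, and stands beside the plant defensin 1.2C gene with calcium, at 129.9 and 152.5 RPKM.

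With the deposited RPKM, a stricter limit separated the copies. Of the 3 genes, 2 were at least 3-fold higher with calcium, plant defensin 1.3 and plant defensin 1.2C. So were 34 of the 71 higher genes, or 25.2% of the whole table. Plant defensin 1.2C fell below 3-fold with 5 RPKM added, at 2.99-fold, and with quantile normalization, at 2.68-fold. The 3-fold split of the copies thus depends on the setting. Plant defensin 1.3 and plant defensin 1.2C also had an adjusted p under 0.001 in the authors' deposited table. So did 49 of the 71 higher genes, or 36.3% of the whole table. Across the family the median log2 ratio was 1.68, beside 1.58 for all higher genes and 1.04 for the whole table. With 71 higher and 64 lower genes and no gene in between, the whole-table median falls near the 2-fold limit. It is therefore no typical level. With only 3 genes, of which 1 sets the median, these figures describe the family and do not set it apart. The authors' deposited table placed all 3 genes in its cluster 1, which holds all 71 higher genes.

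**Figure D2:**
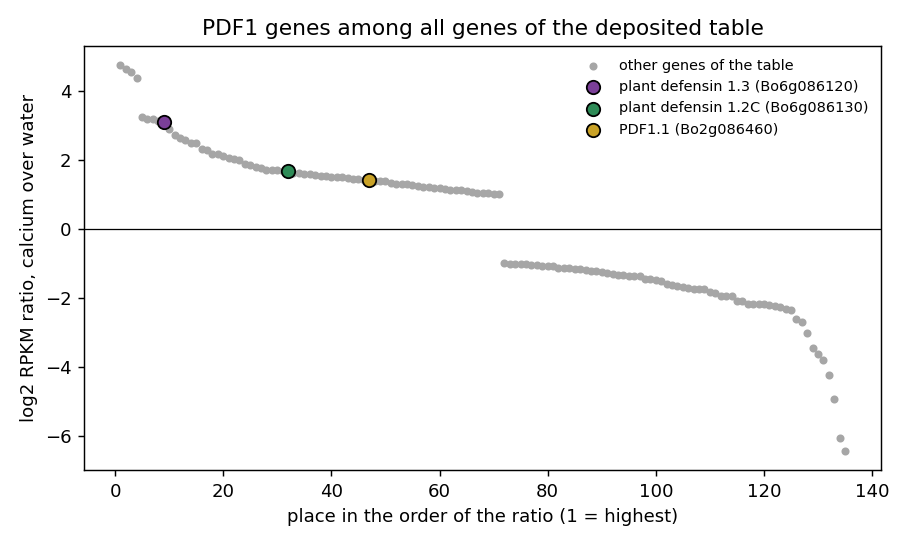
Log2 ratio of RPKM, calcium over water (vertical axis), of the 135 genes of the table in the order of that ratio (horizontal axis), with the PDF1 genes as large coloured points. The defensins stand at places 9, 32 and 47 among the 71 higher genes, and the gap around 0 reflects the 2-fold limit of the table.

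The make-up of the summed RPKM of the 3 listed PDF1 genes differed between the sprays. Plant defensin 1.3 supplied 38.1% of the summed RPKM with calcium and 17.8% with water, a difference of 20.3 percentage points. Plant defensin 1.2C supplied 44.7% with calcium and 56.2% with water. PDF1.1 supplied 17.2% with calcium and 26.0% with water. Plant defensin 1.2C was thus first under both sprays, and the other 2 genes traded places. Of the 256.0 RPKM by which the family sum was higher with calcium, plant defensin 1.3 accounted for 44.8%, plant defensin 1.2C for 40.9% and PDF1.1 for 14.2%.

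The shift lay in plant defensin 1.3 against the other genes. Plant defensin 1.2C was 1.17 times as abundant as plant defensin 1.3 with calcium and 3.16 times with water. Plant defensin 1.3 was 2.22 times as abundant as PDF1.1 with calcium and 0.685 times with water. Between plant defensin 1.2C and PDF1.1 the balance moved less, with plant defensin 1.2C at 2.61 times the level of PDF1.1 with calcium and 2.16 times with water. Without plant defensin 1.3, the sum of the remaining genes was 211.1 RPKM with calcium and 69.8 RPKM with water, or 3.02-fold.

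**Figure D3:**
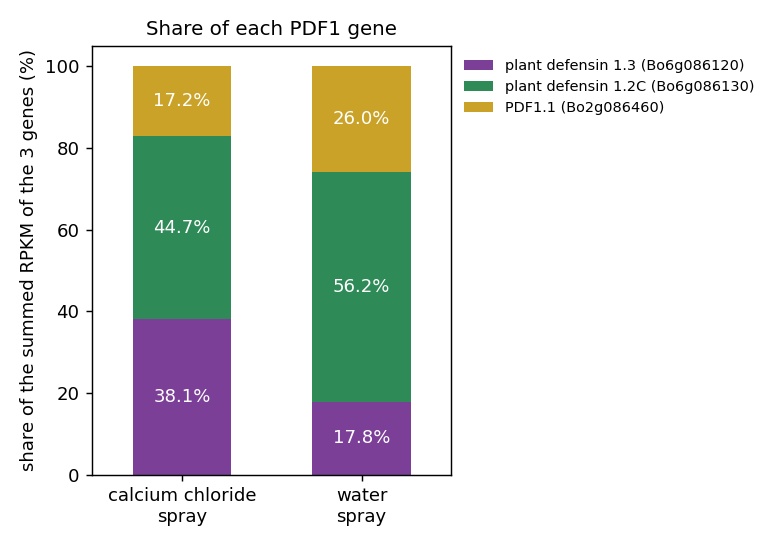
Share of each PDF1 gene in the summed RPKM of the family (vertical axis, percent) with calcium chloride spray (left) and water spray (right). The plant defensin 1.3 part is 38.1% with calcium and 17.8% with water, while the parts of plant defensin 1.2C and PDF1.1 are smaller with calcium.

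The largest of the 3 PDF1 ratios was 3.24 times the smallest. The table also holds 13 sets of genes that match 1 Arabidopsis gene in common, and in these the largest fold difference was 1.01 to 3.89 times the smallest, with a median of 1.23. A wider spread than that of the PDF1 genes was found in 2 of the 13 sets, those of plant cadmium resistance 2 and of the EF-hand gene AT5G39670. The comparison is loose, because each PDF1 gene matches an Arabidopsis gene of its own and no other gene of the table shares that match. It is also uneven in size, since those sets hold 2 genes each, except the RuBisCO small subunit set with 3. A spread over 3 genes is apt to be wider than over 2. Bo6g086120 and Bo6g086130 carry adjoining identifiers, yet plant defensin 1.3 had 2.69 times the ratio of plant defensin 1.2C. Their genomic positions were not analysed here.

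The genes most like each defensin were sought by distance over log2 RPKM in the 2 group values, which is a match of level and ratio alone. Nearest to plant defensin 1.3 was ICS1 (Bo6g086860), whose isochorismate synthase makes a precursor of salicylic acid, at 160.7 RPKM with calcium and 17.9 RPKM with water. Its distance was 0.39, and the next genes, Bo33549s010 and Bo9g172200 at 0.42 and 0.81, have no annotation. Nearest to plant defensin 1.2C were SAG13 (Bo9g166530), a senescence-associated gene, at 0.26, ZIF1 (Bo3g009320), zinc induced facilitator 1, at 0.39, and the homeobox gene HB-12 (Bo4g100070) at 0.42. SAG13 was at 182.3 RPKM with calcium and 49.5 RPKM with water. Nearest to PDF1.1 were a gene of the pectin methylesterase inhibitor superfamily (Bo3g037670) at 0.22, an EF-hand gene (Bo00578s040) at 0.22 and a band 7 protein gene (Bo2g064670) at 0.23. Distances among the defensins were 1.27 to 1.77. They cannot be weighed against those of the nearest genes, which were picked as the closest of all other genes in the table.

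In the order of the ratio, plant defensin 1.3 stood between an EF-hand gene (Bo6g062100) at 8.78-fold and the gene Bo8g095190 without annotation at 7.37-fold. Plant defensin 1.2C stood between Bo3g046980, also without annotation, at 3.22-fold and an EF-hand gene (Bo5g034570) at 3.07-fold. PDF1.1 stood between a lipid transfer protein gene of the 2S albumin superfamily (Bo9g120390) and Bo3g037670, at 2.65-fold and 2.63-fold. Such close neighbours cannot be ordered without an error on the values.

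Genes annotated as lipid transfer proteins or knottins, other small cysteine-rich peptides, were set beside the defensins. Of the 4 with such an annotation, 3 were higher with calcium and 1 was lower. Other peptides of this kind can stand under other annotations, as the trypsin inhibitor gene TI1 does, which was lower with calcium and is described with the inhibitors. Lipid transfer proteins carry lipids outside the cell, and some of them inhibit microbes. LTP3 (Bo2g026830) was at 753.3 RPKM with calcium and 135.2 RPKM with water, or 5.57-fold higher, which lies between plant defensin 1.3 and plant defensin 1.2C. LTP4 (Bo2g026820) was at 314.9 RPKM with calcium and 62.9 RPKM with water, or 5.003-fold higher. Bo9g120390 was at 376.2 RPKM with calcium and 141.9 RPKM with water. All 3 were more abundant than any PDF1 gene under either spray. The gene annotated as a scorpion toxin-like knottin (Bo4g020910), a peptide fold related to that of defensins, went the other way, at 44.7 RPKM with calcium and 212.9 RPKM with water (4.76-fold lower). With water it was more abundant than the 3 PDF1 genes together, and with calcium it was below each of them.

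The genes listed for jasmonate and ethylene did not share 1 direction with the defensins. Of the 4 listed, 2 were higher with calcium and 2 were lower. They were listed by annotation words alone, and whether they respond to jasmonate or ethylene here was not tested. Chitinases break down the chitin of fungal walls, and a putative one (Bo4g020920) was 6.59-fold higher, at 333.4 RPKM with calcium and 50.6 RPKM with water. PR-4 (Bo3g058570), for a hevein-like protein, was 2.96-fold higher, at 986.5 RPKM with calcium and 333.3 RPKM with water. A further chitinase gene (Bo3g028270), named after its value was seen to complete the list, was 2.19-fold lower, at 34.6 RPKM with calcium and 75.5 RPKM with water. OPR1 (Bo2g091100), for a 12-oxophytodienoate reductase, was 2.73-fold lower, at 28.1 RPKM with calcium and 76.8 RPKM with water.

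Jasmonate is also known in Arabidopsis for raising storage and inhibitor proteins that act against insects. All 9 genes listed by annotation words for storage and inhibitor proteins were lower with calcium. So were 64 of the 135 genes, or 47.4% of the table. Whether these 9 genes respond to jasmonate here was not tested. Their differences ran from 2.09-fold to 30.6-fold lower. The Kunitz inhibitor genes Bo00722s110, Bo00722s060 and Bo6g116730 were 30.6-fold, 11.02-fold and 6.07-fold lower. The largest of these ratios rests on a low value, since Bo00722s110 was at 1.45 RPKM with calcium and 44.2 RPKM with water. With a limit of 5 RPKM in both groups, 8 of the 9 genes remained. Named in addition after the values were seen, the vegetative storage protein 2 gene (Bo2g159220) was at 15.6 RPKM with calcium and 70.8 RPKM with water. TI1 (Bo4g019850), a trypsin inhibitor gene also named after its value was seen, was at 308.0 RPKM with calcium and 642.8 RPKM with water. Its Arabidopsis counterpart is counted among the defensin-like genes.

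All 7 genes listed for salicylic acid were higher with calcium, like the 3 defensins and 52.6% of the table. The 7 genes were listed by annotation words alone, and whether they respond to salicylic acid here was not tested. The list had a median log2 ratio of 2.05, beside 1.68 for the defensins and 1.58 for all higher genes. The whole-table median of 1.04 is held near the 2-fold limit by the selection of genes. A GH3 family gene (Bo9g167830), whose Arabidopsis counterpart acts in salicylic acid synthesis, was at 61.4 RPKM with calcium and 2.30 RPKM with water. PR1 (Bo3g088360), commonly read as a sign of salicylic acid signalling, was at 30.5 RPKM with calcium and 6.85 RPKM with water. The plant defensin 1.3 ratio of 8.58-fold was near that of ICS1 copy Bo6g086860, at 8.97-fold, and above the 4.45-fold of PR1. The other ICS1 copy, Bo2g082320, was at 52.1 RPKM with calcium and 16.1 RPKM with water, and its 3.23-fold ratio was near that of plant defensin 1.2C. WRKY70 (Bo6g071110), a transcription factor known in Arabidopsis for raising salicylic acid markers and lowering PDF1.2, was 4.15-fold higher, at 35.7 RPKM with calcium and 8.62 RPKM with water. Bo2g082320 and WRKY70 were named after their values were seen. Both PR1 and WRKY70 were less abundant with calcium than any PDF1 gene.

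**Figure D4:**
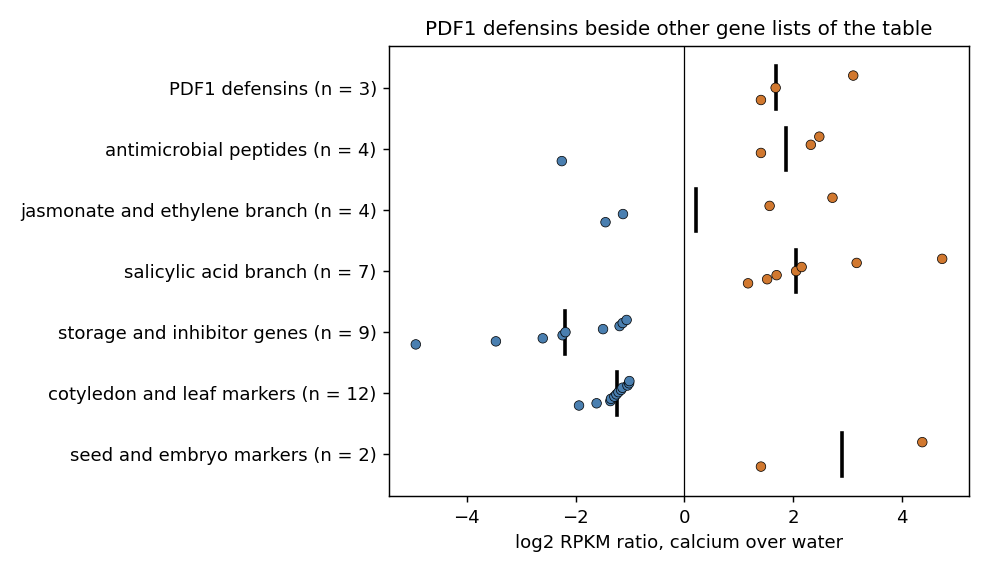
Log2 ratio of RPKM, calcium over water (horizontal axis), of the PDF1 genes and of the genes in 6 annotation lists (rows), with 1 point per gene and a black bar at the median of each list. The defensins, the salicylic acid genes and both genes matched by seed and embryo words lie to the right of 0. The storage and inhibitor genes and the cotyledon and leaf list lie to the left, and the other lists on both sides.

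Genes listed by annotation words as tissue markers also differed between the sprays. The 12 listed for cotyledon and leaf were light-harvesting, photosystem I and RuBisCO small subunit genes, which serve photosynthesis. Whether they mark cotyledon or leaf tissue in these samples was not tested. They summed to 7147 RPKM with calcium and 15889 RPKM with water, and none was at 0. They were 2.01-fold to 3.83-fold lower, with a median of 2.35-fold, and 47.4% of the table was lower. The table offers no genes that define the hypocotyl, so the tissue label could not be checked with it. Of the seed and embryo words, 2 genes matched, and both were higher with calcium. M17 (Bo4g190800), a late embryogenesis abundant protein gene, was at 50.1 RPKM with calcium and 2.42 RPKM with water. The other is Bo9g120390, whose superfamily annotation names lipid transfer proteins as well as seed albumins and does not make it a seed gene. It held most of the sum of both, which was 426.3 RPKM with calcium and 144.3 RPKM with water. The single gene matched by root words, RGF9 (Bo2g166400), was at 16.2 RPKM with calcium and 54.3 RPKM with water. It is annotated as a root meristem growth factor, and whether it marks root tissue here was not tested. The part of these tissue markers in the PDF1 values was not tested.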

How the data were processed

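Per the labels' protocols, hypocotyl RNA was purified on plant RNA columns and made into libraries with an Illumina TruSeq kit. The authors deposited 1 RPKM per gene and group, per the file headers; the control column was taken as water, the only other group in the labels. CASAVA is named in the submitters' processing notes with no version number. The aligner, genome build, annotation and the way the libraries of a group were combined were not given in the sources used here. Both deposited log10 columns were checked to be the log10 of the RPKM columns, and the deposited signed fold change equals the ratio of both RPKM values. The sources used here do not name the test behind the deposited adjusted p-value. Other deposited columns include a difference of RPKM, a difference and a ratio of log10 RPKM, and a cluster number.

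Computed here were ratios, sums, shares of the summed RPKM and medians, with calcium over water or calcium minus water throughout. With 1 value per group, no test, standard deviation or interval was computed. Members and word lists were chosen with earlier results of these data known. The named genes are the members, all other peptide genes, up to 3 genes with the largest absolute log2 ratio per list, the 3 nearest genes and the neighbours in ratio of each member. The RefSeq gene table at hand (assembly BOL) matched 0 of the 135 identifiers, so positions and sequences were not used here. Scaling steps were tested on simulated data of 5000 genes, of which 200 differed between the groups. All genes of the deposited table differed at least 2-fold, so that test does not cover their case. Python 3.11.15, NumPy 2.4.6, pandas 2.3.3 and matplotlib 3.10.9 were used.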

Additional observations from a re-analysis of the deposited data

How the results depend on the processing

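The results were recomputed with 1 or 5 RPKM added, a median shift, quantile normalization, a 3-fold limit, a limit of 5 RPKM in both groups and a deposited adjusted p under 0.001. A value was taken as kept when it stayed within 1.5 times of the reported one, since no replicate error exists. This held for the ratio and the shares of each PDF1 gene and for the family sum under every one of these settings run for them. Counted on the plain ratios, the PDF1 genes numbered 3 with a limit of 5 RPKM. They numbered 2 at a 3-fold limit and 2 at an adjusted p under 0.001, where PDF1.1 was lost. With 5 RPKM added or quantile normalization, plant defensin 1.2C also fell below 3-fold. The ratio ranged from 6.70-fold to 8.58-fold for plant defensin 1.3, from 2.68-fold to 3.20-fold for plant defensin 1.2C and from 2.35-fold to 2.87-fold for PDF1.1. Both scalings used the 135 selected genes alone and do not normalize the libraries. At a 3-fold limit, 1 jasmonate and ethylene gene was higher and 0 were lower, and 5 storage and inhibitor genes were lower. At an adjusted p under 0.001, 1 jasmonate and ethylene gene was lower and 4 salicylic acid genes were higher. No paired analysis was possible because the columns hold 1 value per group and no replicate number; for the same reason no library was left out in turn.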
